A study of Mus musculus with 6 samples.

Results

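The chemokine ligand genes described here are the protein-coding mouse genes whose symbol starts with Ccl or Cxcl followed by a digit. There were 35 of them, 23 Ccl and 12 Cxcl genes, among 48353 genes in the deposited files, of which 21695 were protein-coding. A further 3 symbols that fit the pattern were left out because the annotation does not class them as protein-coding: Cxcl11, a polymorphic pseudogene in the C57BL/6 reference, and the pseudogenes Ccl19-ps1 and Ccl19-ps3. Polyadenylated RNA was sequenced from hepatocytes in 3 Bim knock-out and 3 wild-type libraries, all labelled C57BL/6, and the series asks what the pro-apoptotic protein BIM does below the kinase JNK in the fatty, insulin-resistant liver of obesity. In the knock-out mice floxed Bim (gene symbol Bcl2l11) was removed by Alb-Cre, a recombinase under the promoter of albumin, a hepatocyte gene, so that other cell types of the liver are not its intended target. The wild-type mice are labelled with no further allele, and whether they carried the floxed gene or Alb-Cre is not given in the labels. According to the labels the mice were males on chow or on a high-fat diet begun at 8 to 10 weeks of age and kept for 14 to 20 weeks, but the diet of each sample is not stated. The cells were freed by collagenase perfusion, with no sort named. Whether each library stems from its own animal is not in the labels either, so the p-values given here reflect the spread among these samples, which may be technical.

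Chemokines are small secreted proteins that attract leukocytes by binding G protein-coupled receptors on their surface. The CC family (Ccl) holds most of the attractants of monocytes and lymphocytes, and the CXC family (Cxcl) holds attractants of neutrophils and, in the interferon-induced group that binds CXCR3, of activated T and NK cells. In the liver they are made by resident macrophages (Kupffer cells), endothelial and stellate cells and by hepatocytes exposed to inflammatory signals, and many of the genes lie in clusters and are switched on by NF-kB or interferon signalling.

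The promoters of 2 pairs of neighbouring genes on chromosome 5 are shown because the members of each pair had different patterns over the libraries. Cxcl1 and Cxcl2, which lie 10755 bases apart, encode ligands of CXCR2 that attract neutrophils. Cxcl9 and Cxcl10, which lie 18558 bases apart, encode interferon-induced ligands of CXCR3. Each sequence runs 5′ to 3′ along the gene's strand from 250 bases before to 50 bases after the start (RefSeq, GRCm38.p6). Capitals mark matches on either strand to the NF-kB motif GGGNNNTTC or to GAAANNGAA, the core of the interferon-stimulated response element.
Cxcl1 (chr5:90890995-90891294, plus strand): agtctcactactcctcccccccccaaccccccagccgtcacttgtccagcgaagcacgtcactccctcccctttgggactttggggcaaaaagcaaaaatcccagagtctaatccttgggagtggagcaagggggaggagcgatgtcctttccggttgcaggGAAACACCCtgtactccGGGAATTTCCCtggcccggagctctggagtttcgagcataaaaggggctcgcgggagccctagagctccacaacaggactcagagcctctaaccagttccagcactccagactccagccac
Cxcl2 (chr5:90903649-90903948, plus strand): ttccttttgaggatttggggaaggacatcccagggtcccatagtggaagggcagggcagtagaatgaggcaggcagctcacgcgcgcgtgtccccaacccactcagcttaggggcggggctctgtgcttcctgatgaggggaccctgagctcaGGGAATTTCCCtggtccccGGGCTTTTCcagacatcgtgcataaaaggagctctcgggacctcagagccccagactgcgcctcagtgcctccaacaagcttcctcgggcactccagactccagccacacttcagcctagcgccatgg
Cxcl9 (chr5:92328030-92328329, minus strand): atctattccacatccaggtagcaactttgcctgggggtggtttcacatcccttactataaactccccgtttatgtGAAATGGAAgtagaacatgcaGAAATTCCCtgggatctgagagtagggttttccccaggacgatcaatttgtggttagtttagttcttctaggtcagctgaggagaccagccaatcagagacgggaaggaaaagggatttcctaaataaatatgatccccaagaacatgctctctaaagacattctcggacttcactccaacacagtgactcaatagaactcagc
Cxcl10 (chr5:92348840-92349139, minus strand): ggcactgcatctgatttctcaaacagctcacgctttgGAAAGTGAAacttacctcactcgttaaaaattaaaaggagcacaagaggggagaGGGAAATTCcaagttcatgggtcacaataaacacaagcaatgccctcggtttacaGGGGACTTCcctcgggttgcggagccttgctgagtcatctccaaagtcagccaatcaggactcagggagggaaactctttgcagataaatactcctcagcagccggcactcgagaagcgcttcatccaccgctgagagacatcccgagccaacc
Cxcl1 and Cxcl2 each held 3 matches to the NF-kB motif, 2 of which overlap on opposite strands in the same run of letters. That run starts 71 bases before the start in Cxcl1 and 97 bases before it in Cxcl2. Cxcl10 held 2 NF-kB matches, 159 and 104 bases before the start, and 1 GAAANNGAA match 213 bases before it. Cxcl9 held 1 NF-kB match, on the opposite strand 154 bases before the start, and 1 GAAANNGAA match 175 bases before it. Both members of each pair thus held matches to the same motifs. Of the 35 members, 25 were matched in the promoter table, with 31 windows. The NF-kB motif was found in 10 of these windows, those of Cxcl1, Cxcl2, Cxcl3, Cxcl9, Cxcl10, Ccl1, Ccl9, Ccl17, Ccl20 and Ccl27b, against 13.96% of 32851 windows over all genes. GAAANNGAA was found in 6 member windows (Cxcl9, Cxcl10, Cxcl14, Ccl1, Ccl3 and Ccl19), against 8.56% of all windows. With 1 more letter at the 3′ end (C and A), forms that were searched first, the motifs were found in 7 and 3 member windows, against 5.555% and 3.443% of all windows. Cxcl9 then held neither motif, while Cxcl1, Cxcl2 and Cxcl10 still held theirs. A match is a description of letters and not a bound site.

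The files hold 25335211 to 28245264 estimated reads per knock-out library and 28131355 to 31130519 per wild-type library, and 10486 to 11255 genes were above 0. Bcl2l11 itself had no estimated read in knock-out 1, 2 or 3, and 0, 680 and 478 in wild-type 1, 2 and 3. The gene has 8 transcripts at its locus, and at loci with 2 or more transcripts an exact 0 can be an estimate that was not made: among well-read loci of this kind (median above 100 reads) 18.02% of the library values were 0, against 0.0156% at loci with 1 transcript. The 0 in wild-type 1 therefore does not check that library's label. Of 11 hepatocyte markers in the files, 9 were above 0 in all 6 libraries and 1 was at 0 throughout. Wild-type 1 stood apart, with Spearman correlations of 0.955 to 0.968 with the other libraries, which correlated with each other at 0.983 to 0.993. It held 156260 estimated reads of 14 macrophage and Kupffer cell markers, all of them above 0. The knock-out libraries held 3404, 2580 and 4898 such reads and wild-type 2 and 3 held 4022 and 5018, from 7 or 8 of the markers. Clec4f, Vsig4 and Adgre1, defining genes of Kupffer cells, had 5248, 3062 and 15872 reads in wild-type 1 and were listed at 0 in the other 5 libraries. They lie at loci with 2 transcripts, so those zeros may be estimates that were not made. The markers Cd5l and C1qa, at loci with 1 transcript, had 9380 and 3724 reads in wild-type 1. In the other 5 libraries they had 154 to 294 and 116 to 288. Knock-out 1 and wild-type 2 stood apart in another way, with 196748 and 239163 estimated reads of 20 interferon response genes, against 16022 and 19848 in knock-out 2 and 3 and 31715 and 24607 in wild-type 1 and 3. In bulk samples, fewer cells of a type and less RNA per cell cannot be told apart.

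At least 1 read was assigned to 19 of the 35 chemokine genes (54.3%), a share close to that of all protein-coding genes (11242 of 21695, 51.8%). The other 16 were listed at 0 in all 6 libraries. Of these, Ccl8, Ccl11, Ccl17, Ccl26, Cxcl15, Ccl21a and Ccl21b lie at loci with 1 transcript. There a 0 allows up to 3 reads in a library if reads are counted singly, which is 9.64e-06% to 1.18e-05% of its reads. Most deposited totals are even, and if reads came in pairs this limit would be higher. Ccl1, Ccl5, Ccl12, Ccl19, Ccl22, Ccl24, Ccl27a, Cxcl5 and Cxcl17 lie at loci with several transcripts, and their zeros cannot be read as absence. All 6 listed CC ligands of eosinophil and type 2 responses, which include the eotaxins Ccl11, Ccl24 and Ccl26, were among these 16. The chromosome 4 members Ccl19, Ccl21a, Ccl21b, Ccl27a and Ccl27b have near-identical copies between which reads may be split, and the largest value among them was 2 reads of Ccl27b in knock-out 1. Of the 19 genes that were read, 7 were above 0 in every library (Ccl2, Ccl3, Ccl4, Ccl7, Cxcl1, Cxcl13 and Cxcl16), 12 were at 0 in some, and 15 reached 100 estimated reads in at least 1 library. The remaining 4 stayed low: Cxcl3 reached 66 reads in wild-type 2, Cxcl14 reached 14 in wild-type 1, Ccl28 reached 10 in wild-type 3, and Ccl27b reached 2 in knock-out 1.

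**Figure D1:**
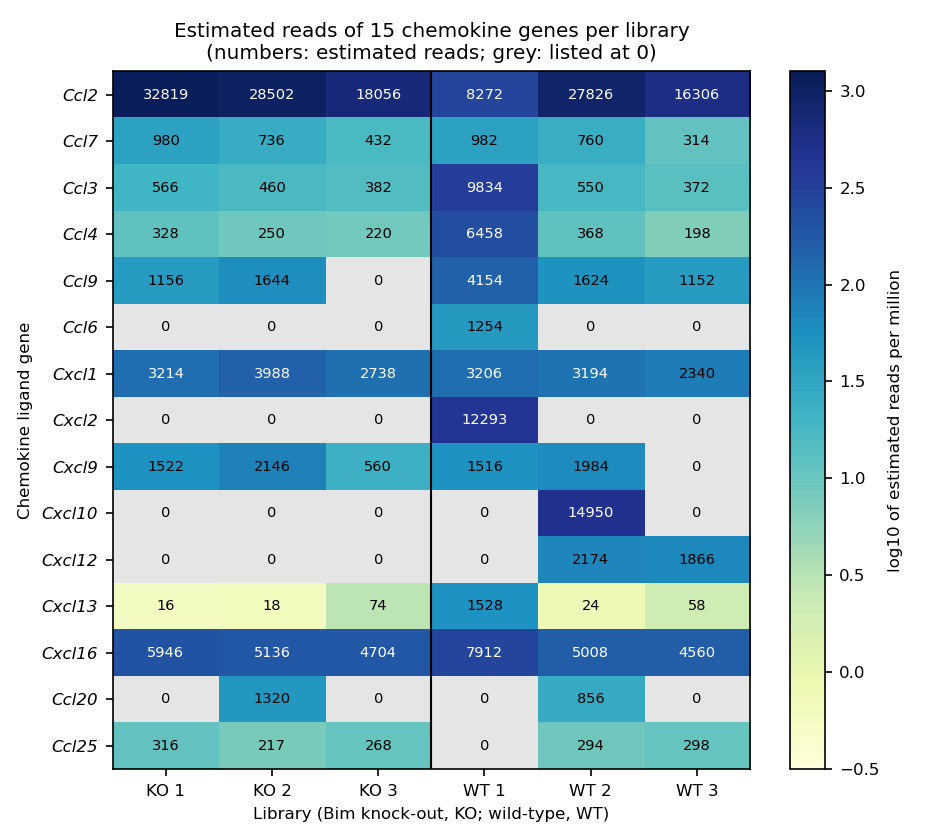
Estimated reads of the 15 chemokine genes that reached 100 reads in a library (rows) in each of the 6 libraries (columns, knock-out left of wild-type). The colour gives log10 of the RPM (estimated reads scaled to the library total) and grey cells are listed at 0. Ccl2 has the darkest row, and Ccl3, Ccl4, Ccl6, Ccl9, Cxcl2 and Cxcl13 are highest in wild-type 1.

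Knock-out against wild-type was the comparison that the design implies. No chemokine gene passed the test: 0 of the 15 that reached a mean of 1 RPKM (reads scaled to transcript length and to the library total) were called by limma at a Benjamini-Hochberg adjusted p below 0.05, against 87 of 11021 genes tested (0.789%), and 0 of 15 had an unadjusted p below 0.05, against 208 genes (1.89%). The voom alternative on the estimated reads also called 0, with 0 at an unadjusted p below 0.05. Within the 5538 tested genes above 0 in every library, limma called 0, with 130 (2.35%) at an unadjusted p below 0.05. Among the 7 chemokine genes above 0 in all libraries the RPKM of the groups overlapped for every gene, against 329 of 5538 such genes (5.94%) whose groups did not overlap. The median log2 difference, knock-out minus wild-type, was -0.05 over these 7 genes, 2 of them positive and 5 negative, and 0.00129 over the 5538. Without wild-type 1 the medians were 0.23 and 0.02. Over all 15 chemokine genes tested the median was -1.34, with 5 positive and 10 negative, and 0 without wild-type 1, against -0.01 over the 11021 genes, with 5270 positive and 5751 negative. The 15 include genes with exact zeros, whose fitted differences depend on the pseudocount. The adjusted p of each of the 7 was 0.941 or more. The intervals given below are wide, and a p that misses the threshold does not show that the groups were alike.

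By mean RPKM a monocyte attractant, Ccl2, came first among the chemokine genes. In wild-type 1 it did not, since Cxcl2 and Ccl3 had 12293 and 9834 reads there. Ccl2 (chr11:82035571-82037453, GRCm38), the main ligand of CCR2 on inflammatory monocytes, ranked 116 among the 11021 tested genes by mean RPKM. Its estimated reads were 32819, 28502 and 18056 in knock-out, against 8272, 27826 and 16306 in wild-type 1, 2 and 3. In RPKM these were 1480, 1769 and 1154 in knock-out, against 360, 1159 and 880 in wild-type. The groups overlapped, since knock-out 3 lay below wild-type 2, and wild-type 1 was the lowest of the 6. On the log2(RPKM + 1) scale Ccl2 averaged 10.50 ± 0.31 in knock-out, against 9.49 ± 0.88 in wild-type (SD, n = 3 each). The difference was 1.01 (SE 0.49, 95% interval -0.25 to 2.27, adjusted p = 0.941 by limma), and the exact two-sided permutation p was 0.2, where 3 against 3 libraries cannot give less than 0.1. Without wild-type 1 the difference was 0.52 (95% interval -0.21 to 1.24). Ccl2 has 2 transcripts, of 813 and 1096 bases, and its reads were placed on the shorter in knock-out 2 and 3, on the longer in knock-out 1 and wild-type 1 and 2, and on both in wild-type 3, which moves its RPKM but not its reads.

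Ccl7 (chr11:82045712-82047525), a ligand of CCR1, CCR2 and CCR3, lies 8258 bases from Ccl2 in the same cluster. It had 980, 736 and 432 estimated reads in knock-out, against 982, 760 and 314 in wild-type 1, 2 and 3. The same span was thus covered by both groups, and wild-type 1 was not low here. The log2(RPKM + 1) difference was 0.22 (SE 0.52, 95% interval -1.11 to 1.56, exact permutation p = 0.6). Reads of Ccl2 exceeded those of Ccl7 by 33.5, 38.7 and 41.8 times in knock-out, against 8.42, 36.6 and 51.9 times in wild-type 1, 2 and 3. Wild-type 1 was thus the library in which this neighbouring pair departed most from its ratio elsewhere.

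Ccl3 (chr11:83647844-83649355) and Ccl4 (chr11:83662584-83664683), which encode the macrophage inflammatory proteins, lie 13228 bases apart at loci with 1 transcript each. Ccl3 had 566, 460 and 382 estimated reads in knock-out, against 9834, 550 and 372 in wild-type 1, 2 and 3. Ccl4 had 328, 250 and 220 in knock-out, against 6458, 368 and 198 in wild-type 1, 2 and 3. The 5 other libraries lay close together for both genes, and wild-type 1 was far above them. In RPM, estimated reads scaled to the library total alone, it exceeded the median of the other 5 by 20.9 times for Ccl3 and 25.3 times for Ccl4. The ratio of Ccl3 to Ccl4 reads stayed between 1.73 and 1.84 in knock-out, and ranged over 1.495 to 1.88 in wild-type. The log2(RPKM + 1) difference of Ccl3 was -1.34 (95% interval -4.78 to 2.11, exact permutation p = 0.8), and 0.13 without wild-type 1. That of Ccl4 was -1.45 (95% interval -5.01 to 2.11, exact permutation p = 0.6), and 0.06 without wild-type 1. The sign of both thus rested on that library.

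Ccl9 and Ccl6, mouse CC chemokines of myeloid cells that bind CCR1, lie 9245 bases apart in the same cluster, at loci with several transcripts. Ccl9 had 1156, 1644 and 0 estimated reads in knock-out, against 4154, 1624 and 1152 in wild-type 1, 2 and 3. Ccl6 was listed at 0 in every knock-out library, and had 1254, 0 and 0 reads in wild-type 1, 2 and 3. Both were thus highest in wild-type 1.

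The neutrophil attractants Cxcl1 (chr5:90891241-90893115) and Cxcl2 (chr5:90903871-90905938) did not share a pattern. Cxcl1 had 3214, 3988 and 2738 estimated reads in knock-out, against 3206, 3194 and 2340 in wild-type 1, 2 and 3. These libraries lay close together and wild-type 1 was not apart. Cxcl2 was listed at 0 in every knock-out library, and had 12293, 0 and 0 estimated reads in wild-type 1, 2 and 3, so that it exceeded Cxcl1 in wild-type 1. Cxcl2 has 4 transcripts, so its zeros may be estimates that were not made. The RPKM of Cxcl1 was 84.9, 107.6 and 76.0 in knock-out, against 160.6, 78.0 and 60.9 in wild-type. Its high value in wild-type 1 came with reads placed on a transcript of 953 bases there and on one of 1871 bases in the other libraries. The difference was -0.05 in log2(RPKM + 1) (95% interval -1.09 to 1.00, exact permutation p = 0.9) and 0.29 on RPM, so its sign depends on the scale.

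The CXCR3 ligands, which are induced by interferon, also differed among themselves. Cxcl10 (chr5:92346638-92348889) had 14950 estimated reads in wild-type 2 and was listed at 0 in the other 5 libraries, at a locus with 4 transcripts. Cxcl9 (chr5:92321347-92328079) had 1522, 2146 and 560 reads in knock-out, against 1516, 1984 and 0 in wild-type 1, 2 and 3. In RPM it reached 53.9 for knock-out 1 and 63.7 for wild-type 2, the libraries high in interferon response genes, and 0 to 77.6 in the other 4, whose range holds both. Cxcl11, which is no member since its reference gene is a pseudogene, had 3610 reads in knock-out 1, 3110 in wild-type 2, and was listed at 0 elsewhere. Knock-out 1 and wild-type 2 are the libraries with the most interferon response reads. Cxcl11 has 2 transcripts at its locus, so its zeros may be estimates that were not made. Of the interferon response genes above 0 in all libraries, 6 in number, the median ratio to the other 5 libraries reached 5.87 for knock-out 1 and 5.54 for wild-type 2, and was 0.308 to 1.31 elsewhere. The part of these libraries' interferon level in Cxcl10 was not tested.

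Of the other CXC ligands, Cxcl16 (chr11:70453983-70459984), a membrane-bound ligand of CXCR6 on T and NKT cells that is released by cleavage, was the most even. It had 5946, 5136 and 4704 estimated reads in knock-out, against 7912, 5008 and 4560 in wild-type 1, 2 and 3. Its log2(RPKM + 1) difference was -0.01 (SE 0.25, 95% interval -0.65 to 0.62, exact permutation p = 1), the narrowest interval of the 7 on that scale, and 0.23 without wild-type 1. On RPM its 95% interval was -0.65 to 0.64, and that of Cxcl1 was narrower, at -0.17 to 0.75. Cxcl13 (chr5:95956951-95961068), the B cell attractant that binds CXCR5, had 16, 18 and 74 reads in knock-out, against 1528, 24 and 58 in wild-type 1, 2 and 3. Wild-type 1 exceeded the median of the other 5 libraries by 70.1 times in RPM. Among those 5, knock-out 3 and wild-type 3 were above the rest, and they were also above the rest in macrophage markers. The difference of Cxcl13 was -1.68 (95% interval -5.47 to 2.11, exact permutation p = 0.5), and -0.14 without wild-type 1. Cxcl12, the ligand of CXCR4 that holds haematopoietic cells in their niches, was listed at 0 in every knock-out library, and had 0, 2174 and 1866 reads in wild-type 1, 2 and 3. It was not called with all 6 libraries (adjusted p = 0.941 by limma), and it was called lower in knock-out without wild-type 1 (adjusted p = 0.00308 by limma). That setting called 207 of 11021 genes, and for Cxcl12 it set zeros alone in knock-out against read values alone in wild-type. Its locus has 4 transcripts, the same kind of locus at which zeros are common.

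Of the CC ligands of epithelia and lymphoid organs, Ccl20 and Ccl25 passed 100 reads. Ccl20, the ligand of CCR6, had 1320 reads in knock-out 2, 856 in wild-type 2, and was listed at 0 in the other 4 libraries. Its locus has 3 transcripts, so these zeros may be estimates that were not made. Ccl25, the ligand of CCR9, had 316, 217 and 268 reads in knock-out, against 0, 294 and 298 in wild-type 1, 2 and 3. Where it was read its values were thus even. These reads were placed on a transcript of 2461 bases, and in wild-type 3 also on one of 2549 bases. Each is as long as its span on the chromosome, so the values do not show a spliced Ccl25 transcript.

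**Figure D2:**
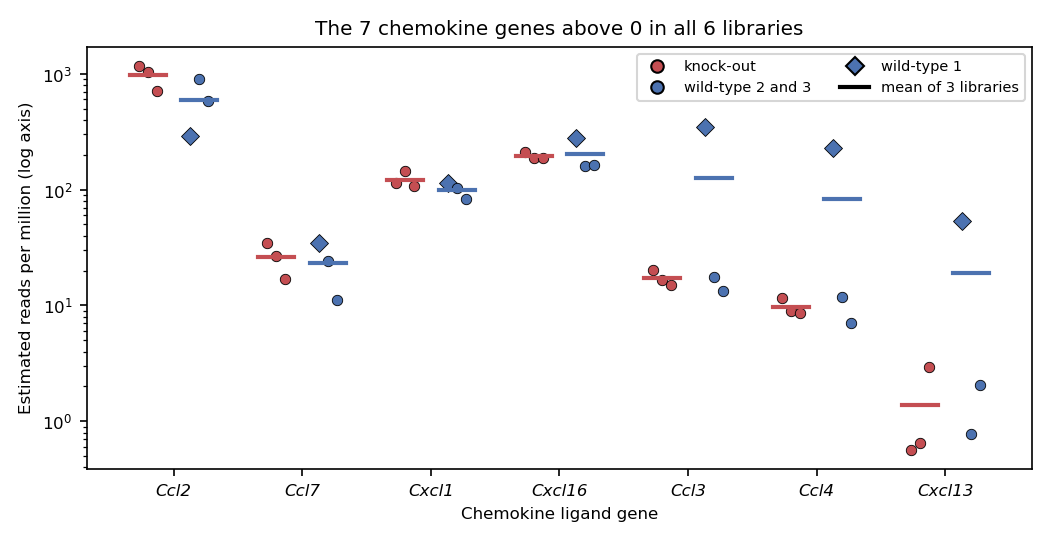
RPM (estimated reads scaled to the library total, log axis) of the 7 chemokine genes above 0 in all 6 libraries. Points are libraries, knock-out left of wild-type for each gene, the diamond is wild-type 1 and bars are means of 3 libraries. The diamond lies far above the other points for Ccl3, Ccl4 and Cxcl13 and below them for Ccl2.

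**Figure D3:**
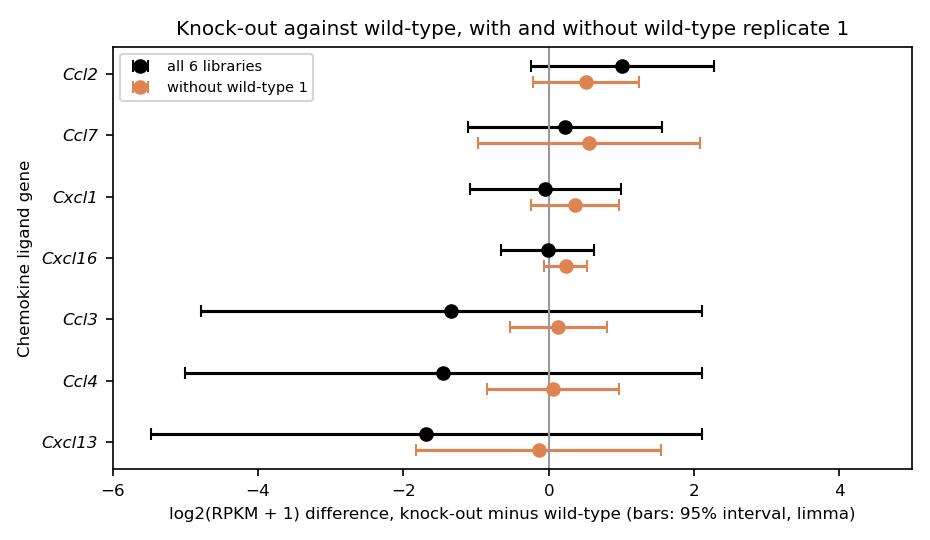
Difference in log2(RPKM + 1), knock-out minus wild-type, for the 7 chemokine genes, with the 95% interval of limma as bars, for all 6 libraries (black) and without wild-type 1 (orange). Every interval holds 0, and without wild-type 1 the estimates for Ccl3, Ccl4, Cxcl1 and Cxcl16 are above 0.

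Summed over all 35 genes, the level and the share of reads overlapped between the groups. Its summed level was 1848, 2225 and 1411 RPKM in knock-out, against 2480, 1859 and 1124 RPKM in wild-type 1, 2 and 3, or 1828 ± 407 in knock-out, against 1821 ± 679 in wild-type (SD, n = 3 each). Members took 0.166% (0.164 to 0.168), 0.161% (0.158 to 0.163) and 0.108% (0.107 to 0.110) of the reads of knock-out 1, 2 and 3. They took 0.203% (0.201 to 0.206), 0.192% (0.190 to 0.194) and 0.0977% (0.0961 to 0.0993) of those of wild-type 1, 2 and 3. The intervals are Wilson intervals at 95% on the reads divided by 2, since most deposited totals are even, and cover counting error only. The make-up of these shares differed more than their size. Ccl2 made up 70.0%, 64.2% and 65.8% of the chemokine reads in knock-out 1, 2 and 3, against 14.4%, 46.6% and 59.3% in wild-type 1, 2 and 3. The shares of knock-out thus all lay above those of wild-type, which was not tested. By RPKM the groups did not overlap for 329 of 5538 single genes above 0 in all libraries (5.94%). The shares count Cxcl2 and Cxcl10, whose zeros elsewhere may be estimates that were not made. Within the 7 chemokine genes above 0 in all libraries, the share of Ccl2 overlapped between the groups. There Ccl2 had 27826 reads beside 9904 of the other 6 in wild-type 2, and 18056 beside 8550 in knock-out 3. The 6 genes other than Ccl2 above 0 in all libraries summed to 11050, 10588 and 8550 reads in knock-out. In wild-type 1, 2 and 3 they summed to 29920, 9904 and 7842 reads, so that the groups overlapped and wild-type 1 lay apart. The 34 genes other than Ccl2 summed to 368, 456 and 257 RPKM in knock-out, against 2120, 700 and 244 RPKM in wild-type 1, 2 and 3. Those totals include genes read in that library alone, Cxcl2 and Ccl6 in wild-type 1 and Cxcl10 and Cxcl3 in wild-type 2.

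The genes that stood out in wild-type 1 were set beside the marker lists, using RPM relative to the median of the other 5 libraries. The 7 macrophage markers above 0 in all libraries had a median ratio of 24.8 there (7.12 to 41.7), and the 9 hepatocyte markers a median of 0.548 (0.293 to 0.882). Ccl3 and Ccl4 lay within the range of the macrophage markers and Cxcl13 above it. Ccl2, at 0.327, lay within the range of the hepatocyte markers. Cxcl1 at 1.05, Ccl7 at 1.42 and Cxcl16 at 1.51 lay between the ranges. In the other 5 libraries the macrophage markers had median ratios of 0.603, 0.542 and 2.15 in knock-out 1, 2 and 3 and 0.529 and 1.66 in wild-type 2 and 3. Cxcl13 had ratios of 0.275, 0.316 and 3.79 in knock-out 1, 2 and 3 and 0.374 and 2.67 in wild-type 2 and 3, so that both were above 1 in knock-out 3 and wild-type 3. Ccl3 had ratios of 1.21, 0.941 and 0.853 in knock-out 1, 2 and 3 and 1.06 and 0.748 in wild-type 2 and 3, and was above 1 in knock-out 1 and wild-type 2 instead. Of the markers of other cell types, 7 of 9 neutrophil, 7 of 9 T and NK cell, 3 of 4 B cell and 8 of 9 stellate cell markers were listed at 0 in all libraries, as were 4 of 10 endothelial and 2 of 5 cholangiocyte markers. Many of these genes lie at loci with several transcripts, where a 0 cannot be read as absence. Summed endothelial marker reads were 1950, 549 and 2195 in knock-out, against 8288, 1860 and 133 in wild-type 1, 2 and 3. Summed cholangiocyte marker reads were 746, 15550 and 5496 in knock-out, against 11232, 4576 and 4728 in wild-type 1, 2 and 3, and came mostly from Spp1 except in knock-out 1, where Spp1 was listed at 0. The part of macrophage content in the chemokine levels was not tested.

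**Figure D4:**
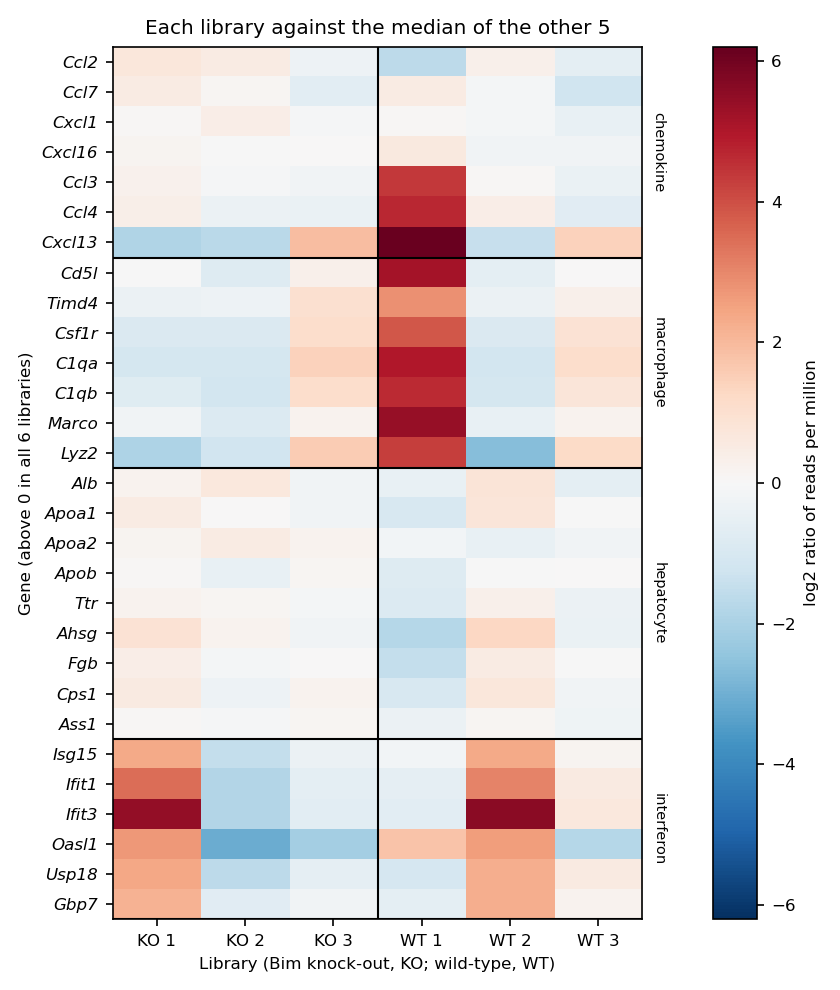
Log2 ratio of RPM in each library to the median of the other 5 libraries, for the 7 chemokine genes, 7 macrophage, 9 hepatocyte and 6 interferon response genes above 0 in all libraries, with knock-out columns left of wild-type. In the wild-type 1 column Ccl3, Ccl4 and Cxcl13 and the macrophage markers are high and Ccl2 and the hepatocyte markers are low, and the interferon genes are high in knock-out 1 and wild-type 2.

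Few reads were assigned to the receptors of these ligands. Many of the receptor genes, Ccr2, Cxcr2 and Cxcr4 among them, lie at loci with several transcripts, where a 0 cannot be read as absence. Of 18 chemokine receptors, 10 had a read in some library and 1 was tested and not called. The highest was Ccr9, with 0, 180 and 0 reads in knock-out, against 274, 0 and 0 in wild-type 1, 2 and 3. Its locus has 7 transcripts. Of 5 atypical receptors, which take up chemokines without signalling, Ackr2 alone was read, at up to 8 reads in knock-out, against 18 in wild-type. The other 4 lie at loci with several transcripts, so their zeros cannot be read as absence either. Of 8 genes for proteases and syndecans that shed, cut or hold chemokines, 6 were tested and 0 were called. Adam17, a sheddase of membrane proteins, had 2048, 1920 and 2131 reads in knock-out, against 4897, 2013 and 2258 in wild-type 1, 2 and 3. It too was highest in wild-type 1, but the list did not share this. Sdc4 had 6494, 4316 and 4952 reads in knock-out, against 5816, 7006 and 5046 in wild-type 1, 2 and 3. Sdc1, at a locus with 5 transcripts, was listed at 0 in wild-type 1. Of the others that were read, Mmp14 was highest in wild-type 1 and Adam10 and Sdc2 were not, each with zeros in some libraries.

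Of all 11021 genes tested 87 were called (0.789%). Among the signals that induce chemokines, 1 of 37 tested genes of the pathway lists, proteases and receptors included, was called. This was Ifnar1, a subunit of the type I interferon receptor, which was listed at 0 in knock-out 1, 2 and 3 and had 6452, 5996 and 6040 reads in wild-type 1, 2 and 3 (adjusted p = 0.000288 by limma). Ifnar1 has 5 transcripts at its locus, so that its zeros may be estimates that were not made. Within the tested genes above 0 in all 6 libraries, 0 of 12 pathway genes and 0 of 5538 genes were called. Of 13 NF-kB pathway genes, all were tested and 0 called. Nfkb2, which encodes the p100 and p52 subunits, had 7704, 6910 and 6270 reads in knock-out, against 8222, 8654 and 6604 in wild-type 1, 2 and 3, a span that overlapped between the groups. Of 6 interferon signalling factors tested 0 were called. Stat2, which carries the interferon signal to the nucleus, had 7960, 3188 and 4150 reads in knock-out, against 3838, 8044 and 4934 in wild-type 1, 2 and 3, and was highest in the libraries that were high in interferon response genes. Of 3 inducing cytokines tested 0 were called. Il1a had 494, 408 and 402 reads in knock-out, against 6438, 470 and 436 in wild-type 1, 2 and 3. Tnf, at a locus with 2 transcripts, had 0, 728 and 0 reads in knock-out, against 17402, 0 and 0 in wild-type 1, 2 and 3. Both were thus highest in the library in which Ccl3 and Ccl4 were highest.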

How the data were processed

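The 3 knock-out and 3 wild-type libraries were grouped and numbered by their titles. The submitters' processing notes name TopHat2 (version 2) and the build GRCm38 (mm10). How reads were assigned to transcripts, and whether strand was used, are not given in the sources used here. Each deposited file gives, for every transcript, its estimated read count and its RPKM, both computed by the authors. Of the locus totals, 99.46% to 99.66% were whole within 0.001, and 92.28% to 92.98% of those were even. Columns with no sample numbered 0.

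Reads and RPKM were summed per gene. Where the mean reached 1 RPKM, genes entered a test on log2(RPKM + 1), which understates changes of low genes. The test was limma 3.58.1 in R 4.3.3 (mean-variance trend, two-sided, no covariate, all 6 libraries, Benjamini-Hochberg adjustment over all 11021 genes). A check on simulated data came first, but it was modelled on genes above 0 in all 6 libraries and did not cover genes with zeros. Because the values are estimates, no test made for whole read counts was the main test, and voom on reads divided by 2 was an alternative. Single genes above 0 in all libraries were also compared by an exact permutation test. For genes with zeros the libraries are given one by one, without mean or fold. Ratios to the median of the other 5 libraries use RPM, the estimated reads scaled to the library total. Python 3.11.15, pandas 2.3.3, numpy 2.4.6, scipy 1.17.1 and matplotlib 3.10.9 were used. Values per library are given for members with at least 100 estimated reads in a library, and, of each pathway list, called genes and up to 4 with the most reads could be named. The members and lists were chosen with earlier results of these data known. Coordinates are those of the files, and promoters are from RefSeq (GRCm38.p6). Alternatives changed the pseudocount (to 0.1), the filter (to none, or to a 5 RPKM mean), scaling, threshold (0.1), zeros, replicate block and left-out libraries, with effects given at the end.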

Additional observations from a re-analysis of the deposited data

How the results depend on the processing

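Of 11021 genes 87 were called. The count was 0 among genes above 0 in all 6 libraries (130 of 5538 at an unadjusted p below 0.05), at loci with 1 transcript, and with the replicate block, and 182 to 207 when 1 library was left out. It was 312 without knock-out 1 and wild-type 2, the libraries high in interferon genes, and 0 among genes above 0 without wild-type 1, 2 settings chosen after seeing the data. Chemokine genes called numbered 0 under every setting run, the replicate block included, except that Cxcl12 was called without wild-type 1, a range of 0 to 1. Pathway genes called numbered 1, against 0 among genes above 0, at loci with 1 transcript, with the replicate block and among genes above 0 without wild-type 1. They numbered 1 to 2 when 1 library was left out, with 2 (Ifnar1 and Irf7) without wild-type 1. Irf7 had 9818, 4158 and 4618 reads in knock-out, against 2842, 0 and 0 in wild-type 1, 2 and 3. Its locus has 13 transcripts, so the zeros behind this call may be estimates that were not made. Same-numbered libraries did not deviate together (correlations -0.16, -0.05 and -0.01 over 5538 genes), so the numbers name samples and do not pair them.

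Of the log2 differences, knock-out minus wild-type, when 1 library was left out Ccl2 spanned 0.52 to 1.36 and Cxcl13 -2.66 to -0.14. Ccl3 spanned -2.19 to 0.13 and Ccl4 -2.40 to 0.055, both positive without wild-type 1. Cxcl16 spanned -0.15 to 0.23, and was 0.019 with quantile normalization, 0.0073 with voom, 0.0015 without knock-out 2, 0.04 without knock-out 3 and 0.23 without wild-type 1. Cxcl1 spanned -0.33 to 0.36, and was 0.29 on RPM and with voom, 0.06 without knock-out 3 and 0.36 without wild-type 1. Ccl7 spanned -0.23 to 0.56, and was -0.02 without knock-out 1 and -0.23 without wild-type 3. The log2 ratio of the group means of summed chemokine RPKM was 0.0054, -1.50 without Ccl2, and -0.25 to 0.29 when 1 library was left out. The cause was not tested. Estimated reads with no molecular identifiers limit what a low value shows.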
